A study of Caenorhabditis elegans with 8 samples.

Results

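RNA that came down with OMA-1 in the immunoprecipitate (IP) of this series was set beside RNA that came down with OMA-1 in the IP of an earlier study, to see which transcripts recurred and which came with one preparation only. The comparison took every gene with a baseMean, the authors' mean read count over samples, of at least 100, which left 6768 of 16031 genes (42.2%). Just inside this minimum lay Y97E10C.1, with a baseMean of 100.1 and log2 ratios in the authors' deposited table of 2.47 in this series and 2.38 earlier. Just outside it lay Y75B8A.3, with a baseMean of 99.8 and log2 ratios in the authors' deposited table of 0.67 in this series and 0.54 earlier. Because baseMean averages over IPs as well as lysates, a gene that is high in an IP passes the minimum more readily.

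OMA-1 is a CCCH zinc-finger protein that binds mRNAs in growing oocytes of Caenorhabditis elegans, and together with its close relative OMA-2 it is needed for oocytes to mature. LIN-41 is a TRIM-NHL RNA-binding protein of the same oocytes that holds back maturation, and the mRNAs of both proteins' complexes include many that are translated late in oogenesis or in the early embryo. An IP pulls out such a ribonucleoprotein complex, and the RNA inside it is then sequenced and set against the RNA of the starting lysate.

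The OMA-1 animals of this series carried fog-1(q253ts), a temperature-sensitive allele that feminises the germ line, the mutation oma-1(zu405te33) and the integrated transgene tnIs17. In tnIs17 the oma-1 promoter drives OMA-1 fused to S, TEV and GFP tags, and the transgene also holds the marker gene unc-119(+). The LIN-41 animals had fog-1(q253ts) and the allele lin-41(tn1541), which puts GFP, TEV and S tags on the endogenous protein. Stocks were kept at 15 °C, and larvae were raised at 25 °C, with 30000 on a plate, until they were young adults about 48 h after they were given food. The labels give an equal mixture of the antibodies 12A6 and 4C9 for the IPs. The series held 8 libraries in 6 groups, which were 2 OMA-1 IPs, 2 LIN-41 IPs, and for each strain 1 lysate depleted of ribosomal RNA and 1 lysate left whole. The sources used here do not give the strain, age or antibody of the earlier OMA-1 IP. No library was described as an untagged or mock IP, so RNA that sticks to the beads cannot be told apart from RNA held by OMA-1.

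All ratios were the authors' log2 values of an IP over the ribosomal RNA-depleted lysates, in which a value of 1 is a 2-fold excess in the IP. The authors pooled the 2 OMA-1 IP libraries of this series, and the table used here holds 1 value per gene for each IP, so no SD over libraries can be given. No difference between the preparations was tested, and the depth of the libraries is unknown. That both OMA-1 ratios share the depleted lysates as denominator rests on the name of the sheet that holds them, since the column notes say of the earlier ratio only that it is relative to lysate. If they share it and are plain quotients, the lysates cancel in the difference of the ratios, which then sets one IP directly against the other. If they do not share it, each difference also holds a difference between lysates. The deposited ratio of icmt-1, 14.1-fold, lay below the quotient of its 56.3 FPKM in the IPs and 3.15 FPKM in the lysates. Not every deposited ratio is therefore a plain quotient of pooled levels. The lysates came from whole animals, in which fewer cells of a type and less RNA per cell cannot be told apart.

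Most transcripts that were enriched with OMA-1 in one preparation were enriched in the other. A log2 ratio of at least 1 was reached by 2678 of 6768 genes (39.6%) in this series and by 2909 (43%) in the earlier IP. Both ratios reached 1 for 2601 genes (38.4%), which were 97.1% of the genes of this series and 89.4% of those of the earlier IP. Because both ratios have lysates as denominator, part of this overlap can come from the lysates, and that part was not tested. At the other end, 1002 genes (14.8%) had a ratio of at most -1 in both IPs. Over all 16031 genes of the table, 26.8% reached 1 in this series, 28.4% in the earlier IP and 23.9% in both, and 19.6% were at most -1 in both. Of the 2678 genes of this series, 2676 also had an adjusted p below 0.05 in the authors' one-sided test for enrichment, which was 39.5% of the 6768. With higher thresholds, 1626 genes reached 2 in both IPs, 880 reached 3 and 404 reached 4.

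Genes that came with one preparation only were few. A ratio of at least 1 in this series and of at most 0 earlier was found for 4 genes (0.0591%), and the reverse was found for 3 genes (0.0443%). Over all genes of the table these shares were 0.705% and 0.418%. With those 4, a total of 77 genes of the list from this series missed the threshold of 1 in the earlier IP, and the other 73 had earlier ratios between 0 and 1. With the 3 of the earlier IP only, 308 genes of the earlier list missed it in this series, and the other 305 had ratios between 0 and 1 in this series. These 73 and 305 genes belong to the 3158 genes that were neither enriched in both, nor low in both, nor of one preparation only. In 338 genes the 2 ratios lay on opposite sides of 0, and in 329 of those both lay within 1 of it.

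**Figure D1:**
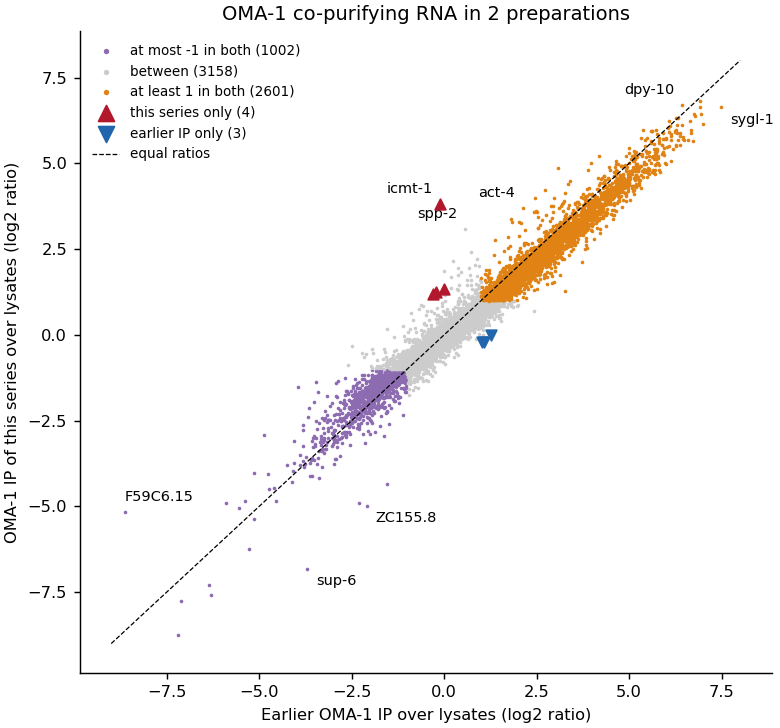
Each point is 1 of 6768 genes, with its log2 ratio over the lysates in the OMA-1 IP of this series (vertical axis) and in the earlier OMA-1 IP (horizontal axis). The dashed line marks equal ratios. Most genes lie near this line, and the ratios of 97.8% of genes are within 1 of each other. The 4 genes of this series only and the 3 genes of the earlier IP only are drawn as triangles. Other genes with low ratios also stand off the line, such as F59C6.15, at -5.16 in this series and -8.64 earlier. On the other side of the line lies sup-6, at -6.82 in this series and -3.70 earlier.

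The difference between the OMA-1 preparations was small for most genes. Its median over genes was -0.13 (this series minus earlier, log2 scale), with quartiles of -0.36 and 0.12 and an SD across genes of 0.41. The median absolute difference was 0.26, or 1.20-fold, and 97.8% of genes lay within 1 in either direction. A difference of at least 2-fold was seen for 150 genes (2.22%), 87 higher (1.29%) and 63 lower (0.931%) in this series. The split rests on the scaling, with 128 higher and 31 lower when the difference was centred on its median and 103 higher and 22 lower after quantile normalization. At least 4-fold was seen for 10 genes (0.148%), 6 of them higher (0.0887%) and 4 lower (0.0591%). Over all genes listed, 14.7% differed by at least 2-fold, 9.69% higher and 4.97% lower in this series, and 1.71% by at least 4-fold, 1.3% higher and 0.405% lower.

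As a yardstick, the OMA-1 IP of this series was set against the LIN-41 IP of this series, another protein handled in the same study. That difference had an SD across genes of 1.29 and a median absolute value of 0.74, or 1.67-fold, with 62.0% of genes within 1. At least 2-fold was reached by 2570 genes (38%) and at least 4-fold by 910 (13.4%). The earlier OMA-1 IP against LIN-41 gave an SD of 1.41, with 3035 genes (44.8%) at least 2-fold apart and 1191 (17.6%) at least 4-fold apart. These differences share an IP with each other, so they are described side by side and were not compared by a test.

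**Figure D2:**
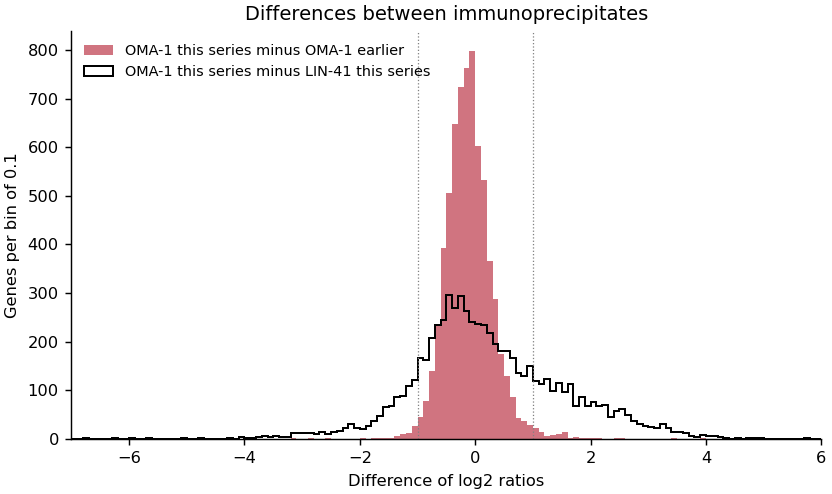
Number of genes per bin of 0.1 for the difference of log2 ratios, as filled bars for OMA-1 of this series minus OMA-1 of the earlier study and as an outline for OMA-1 minus LIN-41 of this series. Dotted lines mark 2-fold in either direction. The filled distribution has an SD of 0.41 and the outlined one an SD of 1.29.

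Some of the error of the ratios of this series could be recovered from the authors' adjusted p-values. For 3620 genes these implied a standard error of the log2 ratio with a median of 0.140 and a range from 0.0998 at the 5th to 0.276 at the 95th percentile. Genes with a ratio at or below 0 gave no such error. This error includes the spread of the lysates, which cancels in the difference only if both ratios share them. The error of the earlier IP is unknown. It is therefore given beside a difference as a scale and not as a test.

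The earlier ratios were spread more widely than those of this series, with an SD across genes of 1.89 in this series and 2.06 in the earlier IP. The 2601 genes enriched in both preparations had a median difference of -0.31, with quartiles of -0.51 and -0.11. The 1002 genes low in both had a median difference of 0.16, with quartiles of -0.03 and 0.40. Both ends thus lay farther from 0 in the earlier IP. The differences of gene groups were therefore read beside the median of -0.13 as deposited, and again after both ratios were brought to one distribution by quantile normalization.

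The named genes highest in both preparations were chosen for that, so their values are a description. The authors' deposited table gave sygl-1 (WBGene00012104, chromosome I 12483809 to 12486235, WBcel235), a Notch target that keeps germline stem cells, log2 ratios of 6.63 in this series and 7.49 in the earlier IP. For dpy-10, a cuticle collagen gene (WBGene00001072, II 6710149 to 6712227), the authors' deposited table had 6.70 in this series and 6.42 earlier. The gene ing-3, of the inhibitor of growth family of chromatin proteins, stood at 6.32 in this series and 6.32 earlier in the authors' deposited table. These 3 genes were at least 79.8-fold over the lysates in each preparation, and in the LIN-41 IP the authors' deposited table gave them 4.28, 3.04 and 3.54 in the same order.

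Several of the other recurring genes encode regulators of transcription or RNA. Zinc-finger genes were represented by ztf-22, at 6.11 in this series and 6.44 earlier in the authors' deposited table, and by ztf-25, at 5.73 in this series and 5.99 earlier. The RNA-recognition motif gene rnp-1 had 5.96 in this series and 6.26 earlier in the authors' deposited table. The bHLH gene ref-1, like sygl-1 a Notch target, had 5.90 in this series and 6.68 earlier in the authors' deposited table. Of these 4, the preparations were farthest apart in ref-1, by -0.78 with an implied standard error of 0.17 for the value of this series.

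The rest of the 15 genes were of mixed function. In the authors' deposited table the Numb gene num-1 had 6.22 in this series and 6.65 earlier, and dad-1, for a subunit of the oligosaccharyltransferase, had 5.95 in this series and 6.24 earlier. The genes sdz-37 and sdz-21, named for zygotic transcription that depends on SKN-1, had 5.91 and 5.90 in this series and 6.23 and 6.26 earlier in the authors' deposited table. For erg-28, adbp-1, mam-4 and the tetraspanin gene tsp-12 the authors' deposited table gave values between 5.72 and 5.98 in this series and between 5.73 and 6.37 earlier. All 15 were lower in the LIN-41 IP than in either OMA-1 IP, from 1.86 for tsp-12 to 5.35 for sdz-21 in the authors' deposited table. Their choice by high OMA-1 ratios fixes part of that order.

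**Figure D3:**
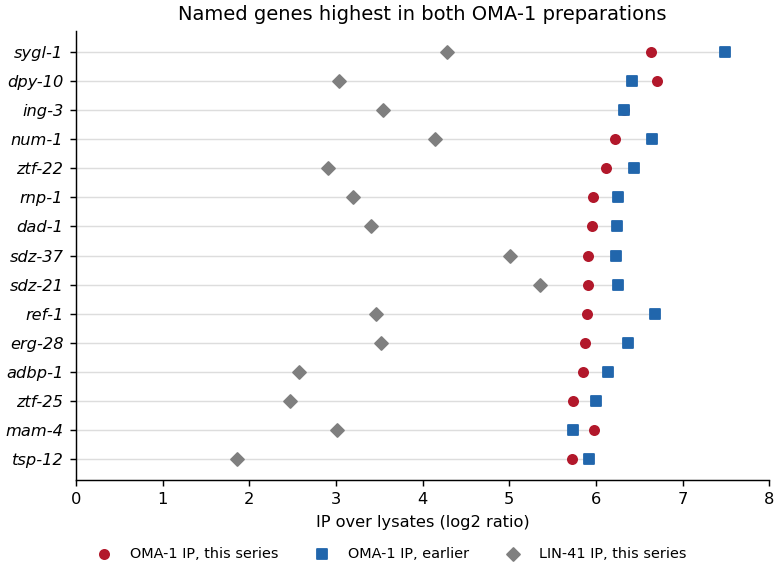
Log2 ratio over the lysates for the 15 named genes with the highest smaller value of the 2 OMA-1 ratios. Circles are the OMA-1 IP of this series, squares the earlier OMA-1 IP and diamonds the LIN-41 IP. The OMA-1 symbols lie between 5.72 and 7.49, and the LIN-41 symbols between 1.86 and 5.35. For ing-3 the circle lies behind the square.

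The 8 named genes lowest in both preparations were 2 genes for small noncoding RNAs, 4 histone genes, 1 ribosomal protein gene and pud-3. The authors' deposited table gave the RNase P RNA gene rpr-1 a log2 ratio of -7.75 in this series and -7.11 earlier, and the RNase MRP RNA gene mrpr-1 -7.28 in this series and -6.35 earlier. In the authors' deposited table the histone gene his-16 had -4.83 in this series and -5.38 earlier. The authors' deposited table put his-64 at -4.49 in this series and -4.72 earlier, and rps-8, for a protein of the small ribosomal subunit, at -4.29 in this series and -4.11 earlier. The lysates had been depleted of ribosomal RNA and the IPs had not. Removal of an RNA from the lysates raises its ratio and does not lower it. Why the ratios of these genes were low was not tested. The authors' deposited table had pud-3 at -4.03 in this series and -5.14 earlier. Histone genes have near-identical copies, among which reads may be split.

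Of 4 genes that came with this series only, icmt-1 stood apart from the other 3. It encodes an isoprenylcysteine carboxyl methyltransferase (WBGene00017673, I 4901918 to 4903264). In the authors' deposited table its log2 ratio was 3.81 in this series and -0.11 in the earlier IP, and 3.97 with LIN-41. The difference between the OMA-1 preparations, 3.92 or 15.1-fold, was the largest of all 6768 genes, and its implied standard error was 0.740. The authors' deposited table gave it 56.3 FPKM in the OMA-1 IPs of this series and 3.15 FPKM in the lysates. The authors' deposited table also gave a log2 ratio of 9.60 for spermatogenic over oogenic gonads in a further study, the highest of all members.

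The other 3 genes of this series lay closer to the thresholds. The fatty acid desaturase gene fat-5 (V 17725004 to 17726818) had 1.18 in this series and -0.30 earlier in the authors' deposited table, a difference of 1.47 with an implied standard error of 0.220. In the LIN-41 IP the authors' deposited table had fat-5 at -1.27. The genes F46F2.3 and R03D7.2, which have no gene name and were picked out after their values were seen, differed by 1.34 and 1.47. The authors' deposited table put F46F2.3 at 1.33 in this series and -0.01 earlier, and R03D7.2 at 1.26 in this series and -0.21 earlier.

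All 3 genes of the earlier IP only lay near the lysate level in this series, and none met the definition once the ratios were centred or quantile-normalized, which left 0 genes in that class. For jun-1, a bZIP transcription factor of the Jun family (II 9113157 to 9132231), the authors' deposited table gave -0.02 in this series and 1.27 earlier, a difference of -1.29. For pxd-1 the authors' deposited table gave -0.20 in this series and 1.09 earlier, a difference of -1.28. The kinase gene dlk-1, known for its part in axon regeneration, had -0.22 in this series and 1.03 earlier in the authors' deposited table, a difference of -1.25. Unlike the other 2, dlk-1 had a LIN-41 ratio of 3.49 in the authors' deposited table.

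The 87 genes at least 2-fold higher in this series were spread over enriched and depleted transcripts. Their median log2 ratio was 0.68 in this series, -0.62 in the earlier IP and -0.50 with LIN-41. In this series 39 of them reached a ratio of 1 and in the earlier IP 18 did, and those 18 reached it in both. Both OMA-1 ratios were below 0 for 36. With LIN-41, 61 of the 87 (70.1%) were below 0 as deposited, against 38.3% of all members. In the lowest of 5 groups by LIN-41 ratio the median difference was 0.10 as deposited and -0.02 after quantile normalization. On the gonad measure 74 of the 87 (85.1%) lay on the spermatogenic side, against 36.8% of all members. That side takes every gonad ratio above 0. Somatic markers such as unc-54 (0.65) and vit-1 (2.37) lie there too, while myo-3 (-0.14) does not. The median gonad ratio of the 87 was 1.06, and 1 of the 20 members at 4 or more was among them. The gonad ratio came from other animals and was not used to choose these genes. Chromosomes V and X held 26 and 21 of them, out of 1008 and 694 members, against 1.29% of all members. Chromosomes I, II, III and IV held 7 of 1406, 8 of 1162, 8 of 1350 and 16 of 1113, and the mitochondrial genome 1 of 8. These counts were not tested.

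Of the genes higher in this series, a saposin-like, an actin and a desiccation-related gene were picked out after their values were seen. The saposin-like gene spp-2 had 3.10 in this series and 0.56 earlier in the authors' deposited table, a difference of 2.54 with an implied standard error of 0.207. The actin gene act-4 (X 4960621 to 4964413) had 3.70 in this series and 2.12 earlier in the authors' deposited table, with 3151 FPKM in the OMA-1 IPs of this series and 242 FPKM in the lysates. The desiccation-related gene lea-1 had 1.94 in this series and 0.38 earlier in the authors' deposited table, a difference of 1.55 with an implied standard error of 0.087. With LIN-41 all 3 were below 0, at -0.83 for spp-2, -0.36 for act-4 and -0.29 for lea-1 in the authors' deposited table. Actin genes are near-identical to each other, so the value of act-4 may hold reads of its relatives.

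Besides icmt-1 and spp-2, the genes at least 4-fold higher in this series were F59C6.15, Y54G2A.36, F44G3.2 and rnh-1.3, at 3.47, 2.42, 2.18 and 2.07. All 4 were below 0 in both OMA-1 IPs, so they were depleted less in this series than earlier. The snoRNA gene F59C6.15 was at -5.16 in this series and -8.64 earlier in the authors' deposited table.

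The 63 genes at least 2-fold lower in this series were mostly enriched in both preparations. Their median log2 ratio was 1.80 in this series, 2.98 in the earlier IP and 0.99 with LIN-41, and 44 of them were at least 1 in both OMA-1 IPs. On the gonad measure 28 (44.4%) lay on the spermatogenic side, against 36.8% of all members. The 4 genes at least 4-fold lower were all noncoding. The gene sup-6, typed as a small nuclear RNA, had -6.82 in this series and -3.70 earlier in the authors' deposited table, a difference of -3.12. The authors' deposited table gave ZC155.8 -4.99 in this series and -2.096 earlier, B0285.12 -4.34 in this series and -1.53 earlier, and R144.15 -4.90 in this series and -2.31 earlier. These 3 genes are each 299 bases long and are listed in Ensembl as srpr-2.1, srpr-1.2 and srpr-2.2, and members of one family may share reads. These 4 genes, and nhr-62, W02B8.2 and unc-119, were picked out after their values were seen.

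Of these 63 genes 57 were protein-coding. The nuclear hormone receptor gene nhr-62 had 2.12 in this series and 3.72 earlier in the authors' deposited table, a difference of -1.61 with an implied standard error of 0.264. The gene W02B8.2 had 1.29 in this series and 3.27 earlier in the authors' deposited table, a difference of -1.98. The gene unc-119, of which the tnIs17 transgene carries a copy, had 1.72 in this series, 2.92 earlier and 0.05 with LIN-41 in the authors' deposited table. Its adjusted p in this series was 0.0585 in the authors' deposited table and its implied standard error 0.811, beside a difference of -1.20.

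The mRNAs of the tagged proteins and their relatives were enriched in both preparations. The authors' deposited table gave oma-1 3.04 in this series and 2.89 earlier, and oma-2 3.42 in this series and 3.76 earlier. Transcripts of lin-41 differed more, at 1.80 in this series and 2.87 earlier in the authors' deposited table, a difference of -1.07 with an implied standard error of 0.228. In the LIN-41 IP the authors' deposited table gave lin-41 4.64, oma-2 3.23 and oma-1 1.66. The lysate level pools the depleted lysates of both strains, and only the OMA-1 strain carried tnIs17 with its OMA-1 fusion. A higher level of oma-1 mRNA in that strain would raise the oma-1 ratio of this series without any binding. Whether it did was not tested.

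Reported targets of OMA-1 or LIN-41 were mostly enriched in both preparations. Of 20 such genes 14 reached a ratio of 1 in this series, 15 earlier and 14 in both, against 38.4% of all members in both. Their median was 1.96 in this series and 2.48 earlier, and their median difference was -0.12 as deposited and turned to 0.08 after quantile normalization. The list was drawn up with knowledge of this study, so its direction is no independent evidence. The Wnt ligand gene mom-2 had 5.95 in this series and 5.62 earlier in the authors' deposited table, and zif-1, for a substrate adaptor of a ubiquitin ligase, had 5.25 in this series and 5.93 earlier. The Notch receptor gene glp-1 had 3.02 in this series and 3.16 earlier in the authors' deposited table, and the Nanos gene nos-2 had 3.71 in this series and 3.33 earlier.

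Targets that were weak with OMA-1 were weak in both preparations as well. The katanin gene mei-1 had -1.003 in this series and -1.33 earlier in the authors' deposited table, and the cullin gene cul-4 had -1.08 in this series and -1.22 earlier. The authors' deposited table put the embryonic regulator gene spn-4 at 1.17 in this series and 1.22 earlier, against 6.21 with LIN-41. The largest gap of the list was that of fce-2, a protease gene of CAAX protein processing, at 1.52 in this series and 2.90 earlier in the authors' deposited table. Its difference of -1.38 had an implied standard error of 0.178, and it was the 1 gene of the list that differed by 2-fold or more.

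Genes for components of the OMA-1 ribonucleoprotein complex were counted in the same way. Of 28 genes 16 reached 1 in this series, 17 earlier and 16 in both, against 38.4% of all members in both. Their median difference was -0.30 as deposited and -0.08 after quantile normalization. The translational repressor gene gld-1 had 4.37 in this series and 4.89 earlier in the authors' deposited table, and puf-5, for a Pumilio-family protein of oocytes, had 3.31 in this series and 4.00 earlier. The poly(A)-binding protein gene pab-1 was the 1 gene at or below -1 in both, at -1.33 in this series and -1.51 earlier in the authors' deposited table.

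Genes of the germline Notch pathway were mostly enriched in both preparations, against 38.4% of all members, with lower ratios in this series. Lower ratios in this series were general among the 2601 genes enriched in both, whose median difference was -0.31. Of 14 genes 11 reached 1 in both preparations, the median difference was -0.39 as deposited and -0.10 after quantile normalization, and 1 gene lay above the median difference of all members. The largest gap was in pen-2, for a gamma-secretase subunit, at 2.72 in this series and 3.60 earlier in the authors' deposited table. The DNA-binding effector gene lag-1 had 4.03 in this series and 4.43 earlier in the authors' deposited table. The PUF, FBF and Nanos genes had 10 of 13 at 1 or more in both and a median difference of -0.37, or -0.14 after quantile normalization. Within them puf-11 ran the other way, at 2.65 in this series and 2.27 earlier in the authors' deposited table.

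Gene groups of the oocyte-to-embryo transition had median differences between -0.12 and 0.25 as deposited. Germ plasm and polarity genes reached 1 in both for 11 of 27, P granule genes for 7 of 20, eggshell and egg activation genes for 8 of 18, and genes of meiotic chromosome axis, synapsis and recombination for 12 of 29, shares near the 38.4% of all members. Their median differences lay between -0.12 and -0.08 as deposited, close to that of all members, and between -0.02 and 0.19 after quantile normalization. Single genes of these lists differed more, from -0.80 for perm-4 to 0.92 for lin-5. The list of M-phase genes had 8 of 28 in both and a median difference of 0.09. For the list of DNA replication licensing, 3 of 16 reached 1 in both, 13 of 16 lay above the median difference of all members, and the median difference was 0.25 as deposited and 0.21 after quantile normalization. In that list the helicase gene mcm-5 had -1.05 in this series and -1.57 earlier in the authors' deposited table.

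Cytosolic ribosomal protein and histone genes were low in both preparations. Of all members 14.8% were at or below -1 in both. Cytosolic ribosomal protein genes were at or below -1 in both for 68 of 81, with medians of -2.74 in this series and -2.67 earlier. Histone genes were at or below -1 in both for 21 of 28. Proteasome genes had medians of -0.86 in this series and -0.89 earlier, 10 of 33 were at or below -1 in both and none reached 1 in either. Translation factor genes had medians of 0.06 in this series and 0.13 earlier, with 10 of 39 at 1 or more in both, against 38.4% of all members. Of the cytosolic ribosomal protein genes 3 were enriched in both, among them rps-29, at 1.47 in this series and 2.09 earlier in the authors' deposited table. Nuclear genes for mitochondrial ribosomal proteins reached 1 in both for 19 of 65, with a median difference of -0.25, or -0.12 after quantile normalization.

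All 8 members encoded by the mitochondrial genome were higher in this series. Their median was 3.30 in this series, 2.75 earlier and 0.57 with LIN-41. In both OMA-1 IPs 7 of 8 reached 1, against 38.4% of all members. The differences lay between 0.49 for nduo-4 and 1.07 for ctc-1, with a median of 0.63 as deposited and 0.95 after quantile normalization. The cytochrome c oxidase subunit gene ctc-1 had 0.58 in this series and -0.49 earlier in the authors' deposited table, with an implied standard error of 0.120. The subunit gene ctc-2 had 3.90 in this series and 3.23 earlier in the authors' deposited table. The 8 transcripts come from one genome and are not separate measurements of the preparations.

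Body wall muscle markers were also higher in this series, although 8 of 9 remained below the lysate level. Of 9 markers 8 had a positive difference and all 9 lay above the median difference of all members, with a median difference of 0.66 as deposited and 0.51 after quantile normalization. Of the 9, 4 were at or below -1 in both, and the 1002 genes of that class had a median difference of 0.16 as deposited. The myosin gene unc-54 had -0.17 in this series and -1.06 earlier in the authors' deposited table, and the myosin gene myo-3 had -0.94 in this series and -1.78 earlier. The 1 marker with a negative difference was the troponin gene tnt-2, at -1.03 in this series and -0.94 earlier in the authors' deposited table. Multiplying the lysate FPKM by each ratio and summing over the 9 genes gave 3715 in this series, 1420 earlier and 496 with LIN-41. The lysates held 1303 FPKM. In both OMA-1 IPs act-4 made up most of the sum. The gap between these sums thus rests largely on act-4, whose value may hold reads of its relatives. None of the 9 was listed at 0. Whether carried-over muscle RNA had a part in the 87 genes higher in this series was not tested.

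Markers of other tissues were counted next. Of all members 14.8% were at or below -1 in both, 38.4% at 1 or more in both and 1.29% at least 2-fold higher. Among 8 intestine markers 6 were at or below -1 in both and the median difference was 0.16 as deposited and -0.02 after quantile normalization, with summed levels of 1621 in this series, 1422 earlier and 1449 with LIN-41. The yolk protein gene vit-3 had the largest difference of that list, at 1.19 in this series and 0.47 earlier in the authors' deposited table, and yolk protein genes are close copies of each other. Of 31 cuticle collagens 15 were at or below -1 in both, 25 lay above the median difference of all members and 3 were at least 2-fold higher in this series, with a median difference of 0.38 as deposited and 0.18 after quantile normalization. The largest of these was col-149, with a difference of 1.87 and an adjusted p in this series of 0.0716 in the authors' deposited table. Of 6 neuron markers 2 reached 1 in both, and the median difference of the 6 was -0.21 as deposited and -0.24 after quantile normalization. Those 2 were unc-64 and unc-119. The tnIs17 transgene carries a copy of unc-119, so its reads need not come from neurons. It also had the most negative difference of that list, at -1.20. The 2 gonad sheath, 2 pharynx and 2 hypodermis markers did not reach 1 in either, with median differences of -0.25, 0.15 and 0.38 as deposited and -0.36, -0.05 and 0.14 after quantile normalization. None of the sperm marker genes reached the baseMean minimum. Of 10 oocyte and germ line markers 6 reached 1 in both, with medians of 2.41 in this series and 2.88 earlier.

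**Figure D4:**
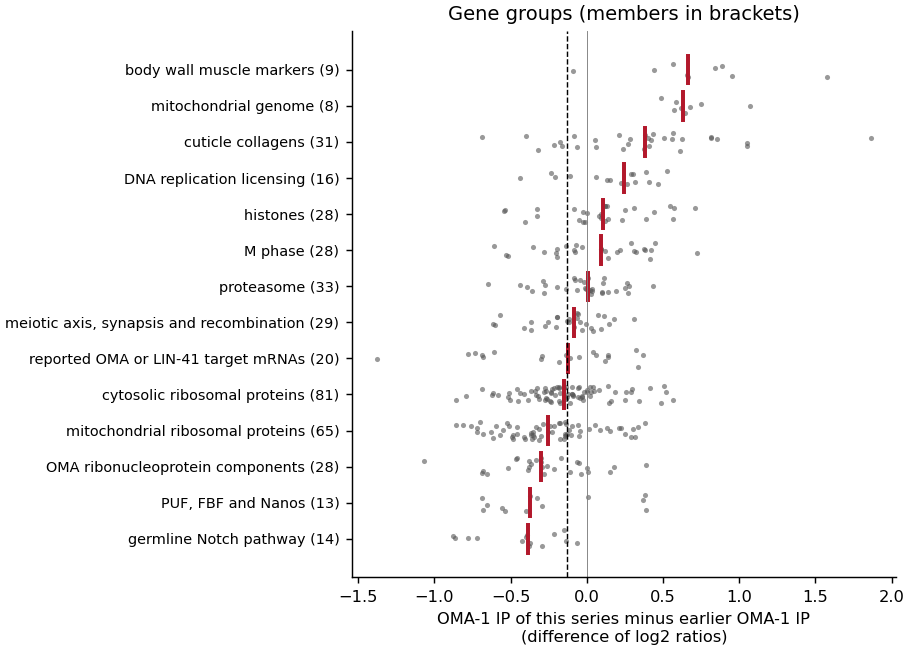
Difference of log2 ratios, OMA-1 IP of this series minus earlier OMA-1 IP, for the members of 14 gene groups. Points are genes, red bars group medians and the dashed line the median of all 6768 genes at -0.13. Group medians run from 0.66 for body wall muscle markers and 0.63 for the mitochondrial genome to -0.39 for the Notch pathway.

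The median difference varied with other properties of the genes as deposited. After quantile normalization the trend along the LIN-41 ratio was gone, while part of those along the gonad ratio and exon length was left. When the genes were cut into 5 groups by their LIN-41 ratio, it was 0.10, -0.03, -0.14, -0.24 and -0.30 from the lowest to the highest group as deposited. After quantile normalization the 5 medians lay between -0.0186 and -0.00869, with no such order. By the gonad ratio it was -0.24 in the most oogenic group and 0.00145 in the most spermatogenic group as deposited, and -0.05 and 0.02 after quantile normalization. In the most spermatogenic group 6.21% of 1353 genes differed by at least 2-fold, against 2.22% of all members. There, 63 genes were higher and 21 lower in this series, against 1.29% and 0.931% of all members. By summed exon length the median was -0.23 in the shortest group, up to 946 bases, and -0.03 in the longest, from 2819 bases, as deposited, and -0.11 and 0.02 after quantile normalization. The quartiles of neighbouring groups overlapped for all 3 properties. The LIN-41 ratio has the lysates in its denominator, and the difference is free of them only if both OMA-1 ratios share theirs. Whether the lysates had a part in the trend was not tested.

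**Figure D5:**
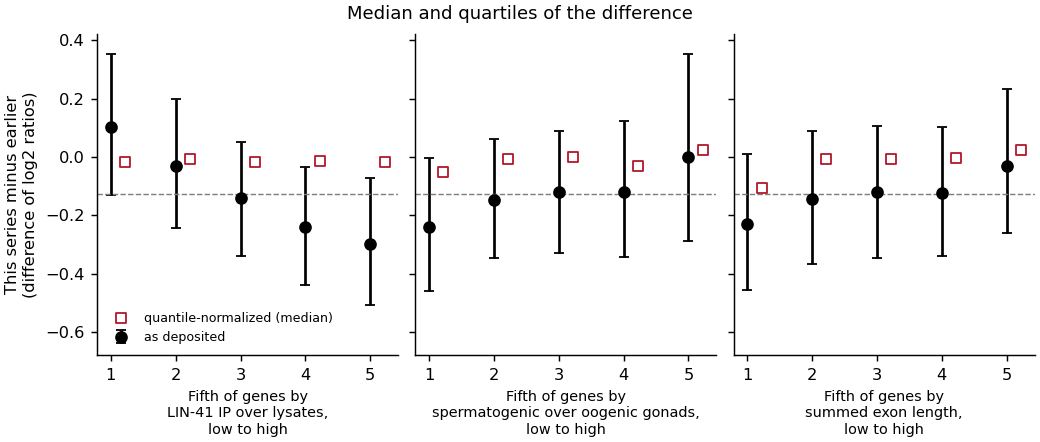
Difference of log2 ratios, OMA-1 IP of this series minus earlier OMA-1 IP, as median (filled point) and quartiles (bars) as deposited and as median after quantile normalization (open square), for 5 groups of genes by LIN-41 ratio (left), by spermatogenic over oogenic gonads (middle) and by summed exon length (right). The dashed line is the median of all genes. The deposited medians run from 0.10 to -0.30 along the LIN-41 ratio, and the open squares stay between -0.0186 and -0.00869.

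Strongly oogenic and strongly spermatogenic transcripts were then counted beside the 38.4% of all members that reached 1 in both preparations, and the difference between these shares was not tested. Of 264 genes with a gonad log2 ratio of at most -4, 180 reached 1 in this series, 191 earlier and 177 in both, and their medians were 2.18 in this series, 2.53 earlier and 1.83 with LIN-41. Of 20 genes with a gonad ratio of at least 4, 7 reached 1 in this series, 6 earlier and 6 in both, with medians of -0.18 in this series and -0.17 earlier. The 1 such gene that differed by at least 2-fold was icmt-1. Of the 264 oogenic genes 9 were at least 2-fold lower and 1 at least 2-fold higher in this series, against 0.931% and 1.29% of all members. Their median difference was -0.30, near the -0.31 of the 2601 genes enriched in both. The 1 higher gene was K01G12.3, picked out after its values were seen, at 2.404 in this series and 0.72 earlier in the authors' deposited table, with a gonad ratio of -9.03 in the authors' deposited table.

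Genes of low baseMean differed more often between the preparations. By baseMean, 4.58% of the lowest of 5 groups of members differed by at least 2-fold, against 1.26% of the highest. Among the 9263 genes under the minimum of 100, 2200 (23.8%) differed by at least 2-fold and the SD of the difference was 0.861. The low counts of that set limit what it can show. Between chromosomes I, II, III, IV, V and X the median difference of the members ran from -0.14 to -0.11.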

How the data were processed

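The 8 RNA-seq libraries came from IPs and lysates. Per the submitters' processing notes, the tools included SAMtools 1.0, DESeq2 1.12.3, STAR 2.4.2a and Trimmomatic 0.32, and the build was WBcel235. The notes used here give these names without roles, and the sources used here name no counter, annotation or strand setting. The authors deposited log2 ratios of each IP over the depleted lysates, 1 such column for the OMA-1 IP of a previous study, and 1 for gonads of another study, per the file headers. The authors deposited Benjamini-Hochberg adjusted p-values, which looked for enrichment only, and FPKM pooled over the libraries of a kind. The deposited baseMean is a mean count signal over samples, scaled by the authors and not whole. Another 4 columns of per-sample values from other studies were not used. Replicate libraries were pooled by the authors, so no test was run, as the design stated, and the depth per library is unknown.

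Differences were computed from the deposited ratios in Python 3.11.15 with pandas 2.3.3, NumPy 2.4.6 and SciPy 1.17.1, and plotted with matplotlib 3.10.9. The implied standard error is the log2 ratio over the normal deviate of the p recovered by undoing the Benjamini-Hochberg steps. It was checked on simulated p-values built with the same one-sided normal formula, so the check covers the calculation and not the authors' test. Only genes with a ratio above 0 and an adjusted p below 0.9 could give it, and values stored as 0 (255 genes) gave none. Gene coordinates and exon lengths came from Ensembl release 115 for WBcel235 and covered 6741 members. The 5 symbols stored as dates were recovered by identifier where used. Genes were named by rule: the 15 highest and 8 lowest in both IPs, up to 12 of each class found in one IP only, and the extremes and reported targets of 29 gene lists, among genes with a name. Members and lists were chosen with earlier results of these data known. Alternatives were other thresholds, centring, quantile normalization and other baseMean minimums.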

Additional observations from a re-analysis of the deposited data

Results flagged for a closer look

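The OMA-1 ratios of 7 genes lay at 1 or more in one preparation and at or below 0 in the other. Several of them were close to the lysate level in that other preparation, such as F46F2.3 at -0.01 earlier and jun-1 at -0.02 in this series in the authors' deposited table. The 3 genes of the earlier IP only no longer met the definition after centring or quantile normalization, which left 0. The differences, this series minus earlier on the log2 scale, were 3.92 for icmt-1, 1.47 for fat-5, 1.47 for R03D7.2 and 1.34 for F46F2.3, all higher in this series. They were -1.29 for jun-1, -1.28 for pxd-1 and -1.25 for dlk-1, all lower in this series. These differences were not tested, since each preparation has 1 pooled value per gene.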

How the results depend on the processing

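The count of 2601 recurring genes became 1626 at a threshold of 2 and 880 at 3, and lay between 1939 and 3832 under the other settings tried. The 4 genes of this series only became 1 at a threshold of 2 and 1 at 3, 9 with each ratio centred on its median, 7 after quantile normalization, and 7, 0 and 113 with a baseMean minimum of 50, 500 and none. The 3 genes of the earlier IP only became 0 at thresholds of 2 and 3, 0 when centred, 0 after quantile normalization, 1 with a minimum of 500 and 67 with none. With minimums of 50, 500 and none, 147, 21 and 1553 genes were at least 2-fold higher and 100, 25 and 797 lower, against 87 and 63. The 87 and 63 became 103 and 22 after quantile normalization and 128 and 31 when centred. At least 4-fold higher were 15, 0 and 209 genes, against 6, and lower 8 and 65 with minimums of 50 and none, against 4. The cause was not tested. The split of higher against lower genes thus rests on the scaling. Leaving out the 13 members that the authors marked for mapping quality, chosen after seeing the data like the alternatives for 2-fold counts, changed none of these counts by 1.5 times. The trend of the difference along the LIN-41 ratio was gone after quantile normalization, also tried after seeing the data. No list median moved by more than the SD of the difference, but its sign changed in 7 of 28 lists when centred and in 9 after quantile normalization. No paired analysis was possible because the table holds no value for a single library, and for the same reason no library could be left out. Depth limits genes of low baseMean most.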
